A study of Mus musculus with 10 samples.

Results

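The urea cycle and glutamine enzyme genes are Cps1, Otc, Ass1, Asl, Arg1, Glul and Gls2, listed by name, and all 7 were found among the 21631 protein-coding genes on autosomes and X of the RefSeq table. Open chromatin near them was read from ATAC-seq peak lists of liver tumours. In ATAC-seq a transposase cuts and tags accessible DNA, and a peak is a stretch with more tags than its surroundings. For each gene, all peaks lying inside it or within 10 kb of either end were taken from the lists of 10 libraries, 1 list per library.

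The tumours arose in FVB mice carrying LAP-tTA, a doxycycline-repressed activator driven by a liver promoter, and TRE-MYC, a MYC transgene that the activator switches on when doxycycline is withdrawn. All groups share these transgenes and this withdrawal. Homo tumours (3 libraries, mice of about 100 days) had both Arid1a alleles floxed plus Alb-cre, a Cre recombinase driven by the albumin promoter. Het tumours (3 libraries, about 70 days) had 1 floxed Arid1a allele plus Alb-cre. WT tumours (4 libraries, about 55 days) had both Arid1a alleles floxed and no Cre. Arid1a encodes a large SWI/SNF subunit that helps this chromatin remodelling complex hold on to DNA, and the series asks what its loss does in liver cancer. Age differs between all groups, and the presence of Cre differs between WT and the Homo and Het groups. In comparisons with WT, neither can be told apart from Arid1a genotype. Homo and Het both carry Alb-cre, and between them age cannot be told apart from genotype. Cre acts only in cells that use the albumin promoter, so other cells of the bulk tumour keep Arid1a. In bulk tissue, fewer cells with an open site and less opening per cell cannot be told apart. The labels number the replicates without saying whether they are different mice, and p-values here are read against library-to-library spread, which may be technical.

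In the liver, the urea cycle turns toxic ammonia into urea, mainly in hepatocytes near the portal vein. Glutamine synthetase catches the remaining ammonia in a narrow layer of hepatocytes around the central vein, while liver glutaminase releases ammonia from glutamine close to where the urea cycle runs. Textbook liver zonation therefore places Glul and the other genes in different hepatocytes, and Glul is a known target of Wnt signalling in that central layer.

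Among the enzymes of the urea cycle and glutamine metabolism, Glul was the gene with a peak in every library, and it lay across the start of the gene. Gls2 had a peak at its lower-coordinate end in every library other than Homo 1. Ass1 had a peak across its start in Homo 3, WT 1 and WT 4, and Asl had peaks within 10 kb in Homo 3, WT 1 and WT 3. Cps1, Otc and Arg1 had no peak within 10 kb in any of the 10 libraries. No peak within 10 kb in any library was also the case for 44.5% of all protein-coding genes, and a peak in all 10 libraries was found for 4.11% of them.

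The promoter sequences of Glul, Ass1 and Otc are shown because they cover the cases of a start open in every library, in a few and in none. They come from RefSeq, build GRCm38.p6, and run from 250 bases before the start to 50 bases from it, on the strand of the gene. Capitals mark the bases that lie inside the peak of every library that had a peak there, which was 10 libraries for Glul and 3 for Ass1, while the Otc window met no peak and has no capitals. The windows are chr1:153899679-153899978 on the plus strand for Glul, chr2:31470020-31470319 on the plus strand for Ass1 and chrX:10252055-10252354 on the plus strand for Otc.
Glul: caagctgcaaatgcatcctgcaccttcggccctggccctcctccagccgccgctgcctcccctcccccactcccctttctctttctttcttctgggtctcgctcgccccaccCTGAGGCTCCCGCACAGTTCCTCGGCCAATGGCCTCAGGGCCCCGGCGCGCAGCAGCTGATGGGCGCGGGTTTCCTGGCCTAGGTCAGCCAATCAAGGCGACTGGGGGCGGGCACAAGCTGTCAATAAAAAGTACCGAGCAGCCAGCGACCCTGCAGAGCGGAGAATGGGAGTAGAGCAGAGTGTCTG
Ass1: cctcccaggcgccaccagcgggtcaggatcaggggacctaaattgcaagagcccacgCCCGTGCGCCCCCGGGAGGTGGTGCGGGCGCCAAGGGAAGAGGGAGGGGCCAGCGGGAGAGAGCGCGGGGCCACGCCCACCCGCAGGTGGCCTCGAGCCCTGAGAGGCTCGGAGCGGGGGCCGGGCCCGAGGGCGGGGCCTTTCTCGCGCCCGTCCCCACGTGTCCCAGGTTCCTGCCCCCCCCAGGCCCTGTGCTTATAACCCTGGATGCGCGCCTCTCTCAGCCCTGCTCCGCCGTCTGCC
Otc: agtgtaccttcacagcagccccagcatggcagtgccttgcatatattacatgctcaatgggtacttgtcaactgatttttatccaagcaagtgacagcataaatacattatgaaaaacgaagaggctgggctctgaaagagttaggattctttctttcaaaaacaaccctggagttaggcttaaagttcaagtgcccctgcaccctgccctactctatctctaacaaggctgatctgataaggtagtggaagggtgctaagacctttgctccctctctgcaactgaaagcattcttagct
The table of promoters holds no entry for Cps1, Asl, Arg1 or Gls2.

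The Glul window had 17 CpG pairs and 64.3% G and C, and 188 of its bases were inside the peak of all 10 libraries. The Ass1 window was richer, with 27 CpG pairs, 74.0% G and C and 243 bases inside the peaks of Homo 3, WT 1 and WT 4. The Otc window had 1 CpG pair and 44.3% G and C. Over all 32619 promoter windows, a peak in at least 1 library met 1.17% of those with 0 to 4 CpG pairs, 6.23% of those with 5 to 9, 43.7% of those with 10 to 19 and 75.2% of those with 20 or more. A peak in all 10 libraries met 0.00814%, 0.0991%, 0.879% and 3.74% of the same classes. Otc thus belonged to the class of promoters that seldom met a peak, and Glul, with fewer CpG pairs than Ass1, was open in more libraries.

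**Figure D1:**
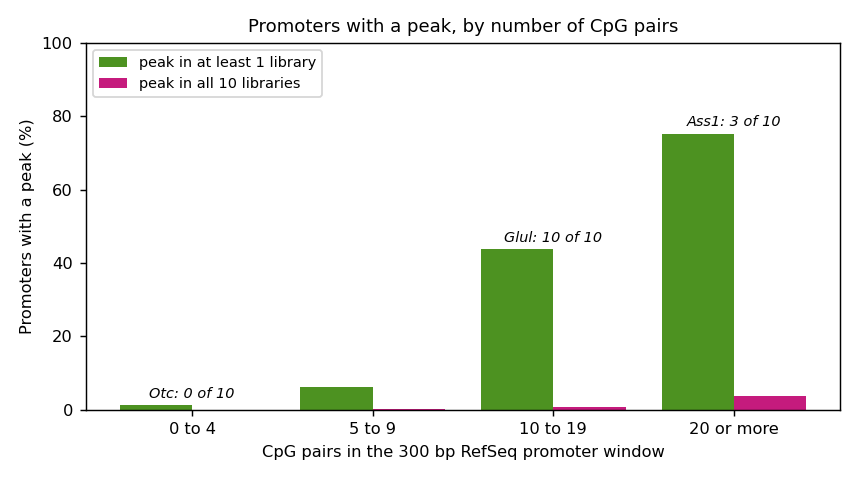
Share of RefSeq promoter windows (vertical axis, %) that met a peak in at least 1 library (green) or in all 10 (magenta), by the number of CpG pairs in the 300 bases (horizontal axis). The shares rise with CpG pairs to 75.2% and 3.74%, and the labels place Otc (0 of 10 libraries), Glul (10 of 10) and Ass1 (3 of 10) in their classes.

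Letters of 10 known motifs were searched on both strands of the windows, and the share of all promoter windows that hold each is given with it. They were CACGTG, the E-box of MYC and MAX (7.2%), CCAAT, the CCAAT box (37.6%), TTNNGCAA, like sites of C/EBP factors (10.9%), CAAAGTC, like sites of HNF4 (4.46%), TGANTCA, the AP-1 site (7.85%), GGGCGG, the GC box (35.9%), TATAAA, the TATA box (13.7%), CTTTGA, the core of TCF/LEF sites (16.0%), TGTTTAC, the FOXA site (3.67%), and TGACGT, the CRE (7.56%). The Ass1 window held CACGTG beginning 36 bases before the start, and GGGCGG beginning 63 bases before it. The Glul window held the CCAAT box letters beginning 113 and 50 bases before the start, and GGGCGG beginning 33 bases before it. These matches overlapped none of each other and were all within the capitals, and the Otc window held none of the 10 motifs.

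Glul (mm10, chromosome 1, 153899929 to 153909723) encodes glutamine synthetase, which joins ammonia to glutamate. In Homo the peak ran from 153899767 to 153900481 in Homo 1, from 153899785 to 153900084 in Homo 2 and from 153899730 to 153900218 in Homo 3. In Het it ran from 153899706 to 153900234 in Het 1, from 153899687 to 153900214 in Het 2 and from 153899776 to 153900246 in Het 3. In WT it ran from 153899707 to 153900295 in WT 1, from 153899707 to 153900167 in WT 2, from 153899791 to 153900163 in WT 3 and from 153899759 to 153900299 in WT 4. The peaks joined into 1 region of 795 bp, and every library shared the stretch from 153899791 to 153900084, which holds the RefSeq start. The summit lay between −68 bases (WT 1) and 149 bases (WT 4) from the start, and the range of its position in Homo (−35 to 110) and in Het (−42 to 96) overlapped that in WT (−68 to 149).

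The deposited fold of the Glul peak, which is the authors' enrichment of the summit over the local background, was 9.88, 9.0 and 8.0 in Homo 1 to 3, 9.09, 9.6 and 6.54 in Het 1 to 3, and 6.67, 9.41, 7.72 and 7.29 in WT 1 to 4. The percentile of the peak among the rows of its own list, ranked by the deposited −log10 p, was 95.7%, 88.7% and 74.6% in Homo 1 to 3, 95.1%, 95.2% and 73.7% in Het 1 to 3, and 64.8%, 95.9%, 89.7% and 78.9% in WT 1 to 4. The groups overlapped in both values, with high percentiles in Homo 1, Het 1, Het 2 and WT 2 and lower ones in Homo 3, Het 3 and WT 1. Of the 12266 regions formed by all lists together, 647 were called in all 10 libraries. The Glul region had a median percentile of 89.2% over the 10 libraries, the median of those 647 regions was 81.7%, and 63.5% of them had a lower one.

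Fold and −log10 p together give the whole number of tags at a summit, which shows how much evidence a peak rests on. The fold adds 1 to both the tags and the background before dividing, so it is smaller than tags over background. At Glul the summit held 33, 17 and 31 tags in Homo 1 to 3, 27, 23 and 16 in Het 1 to 3, and 27, 31, 24 and 27 in WT 1 to 4. The local background was 2.44, 1.0 and 3.0 tags in Homo, 2.08, 1.5 and 1.6 in Het, and 3.2, 2.4, 2.24 and 2.84 in WT. The summit thus stood far above its background in each library, and the exact Poisson 95% intervals, which cover counting error only, ran from 9.15 to 26.0 tags for the lowest (Het 3) and from 22.7 to 46.3 tags for the highest (Homo 1). Divided by the background of the whole library, the summit held 36.1, 36.6 and 19.3 tags per background tag in Homo, 38.8, 35.1 and 21.7 in Het, and 15.5, 27.4, 24.4 and 19.2 in WT. On this scale 2 Homo and 2 Het libraries stood above every WT library, while Homo 3 and Het 3 lay within the WT range. These are values of single peaks and were not tested between groups.

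Other annotated starts lie under the same peak. Gm38440, a long noncoding RNA gene on the minus strand, starts 153 bases from the Glul start, and the peak covered both starts in 8 of 10 libraries, Homo 2 and WT 3 being the exceptions. Mir8114, a microRNA gene annotated at 153899926 to 153900036, overlaps the Glul start. ATAC-seq has no strand, so the opening cannot be assigned to one of these genes.

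**Figure D2:**
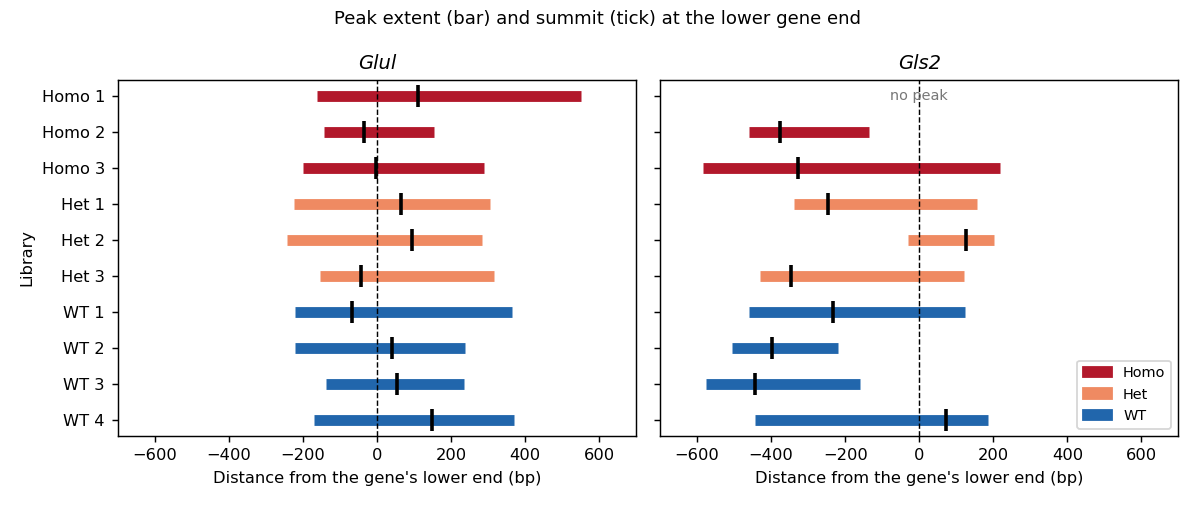
Extent of the peak (bar) and its summit (black tick) at Glul and Gls2 in each library, as distance in bp from the lower-coordinate end of the gene (dashed line). The Glul bars all cross the line with summits from −68 to 149 bp, while the Gls2 bars of Homo 2, WT 2 and WT 3 end below it and Homo 1 has none.

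Gls2 (chromosome 10, 128194635 to 128210004) encodes the glutaminase typical of adult liver, which splits glutamine into glutamate and ammonia. Peaks at its lower-coordinate end joined into a region of 805 bp, from 128194050 to 128194854. In Homo the peak ran from 128194174 to 128194499 in Homo 2 and from 128194050 to 128194854 in Homo 3, and the nearest row of Homo 1 was 111333 bp away. In Het it ran from 128194296 to 128194792 in Het 1, from 128194605 to 128194837 in Het 2 and from 128194206 to 128194756 in Het 3. In WT it ran from 128194174 to 128194759 in WT 1, from 128194130 to 128194417 in WT 2, from 128194059 to 128194475 in WT 3 and from 128194191 to 128194822 in WT 4. The peaks of Homo 2, WT 2 and WT 3 ended 136, 218 and 160 bp outside the gene, and the other 6 crossed its end. Gls2 summits were spread more widely than Glul summits, from −443 bp (WT 3) to 125 bp (Het 2) from the gene end, and all but those of Het 2 and WT 4 lay below it.

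The Gls2 peak ranked below the Glul peak of the same library throughout. Its deposited fold was 5.49 and 6.19 in Homo 2 and Homo 3, 6.47, 6.73 and 4.7 in Het 1 to 3, and 6.54, 8.63, 5.51 and 7.62 in WT 1 to 4. Its percentile was 21.2% and 48.5% in Homo 2 and Homo 3, 43.0%, 54.5% and 4.02% in Het 1 to 3, and 54.9%, 84.5%, 20.8% and 75.2% in WT 1 to 4. The percentile was below that of Glul in each of the 9 libraries and the fold in all of them other than WT 4, and the groups overlapped in both values. The summit held 9 and 26 tags in Homo 2 and Homo 3, 14, 13 and 10 in Het 1 to 3, and 24, 23, 13 and 24 in WT 1 to 4. Per background tag of the library this was 19.4 and 16.2 in Homo 2 and Homo 3, 20.1, 19.8 and 13.6 in Het, and 13.8, 20.3, 13.2 and 17.1 in WT. The group ranges overlapped on both scales, and Het 3 held the weakest peak by fold and percentile.

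**Figure D3:**
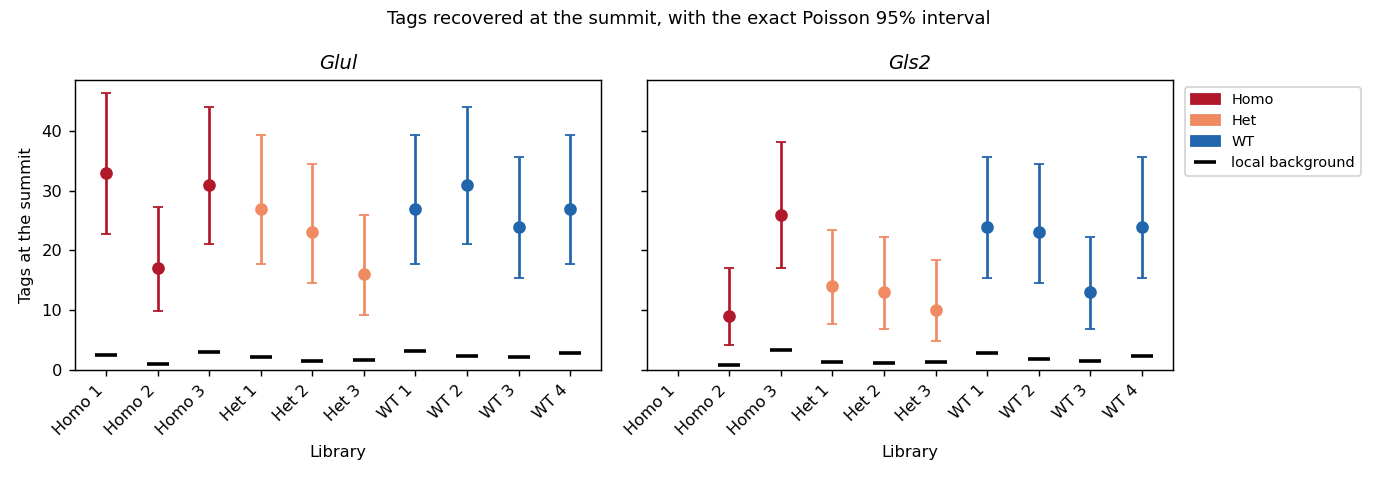
Tags at the summit of the Glul peak and of the Gls2 peak at the lower gene end (vertical axis) in each library (horizontal axis), with the exact Poisson 95% interval as bars and the local background as black dashes. Glul holds 16 to 33 tags in all 10 libraries and Gls2 9 to 26 in 9, with overlapping groups.

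A second region within 10 kb of Gls2 lay beyond its higher-coordinate end, at 128211682 to 128212012, and was called in Homo 3, WT 1, WT 2 and WT 4. It covers the RefSeq start of the neighbouring gene Spryd4 (minus strand, 128211794) and is 1678 to 1775 bp outside Gls2. Its fold was 6.09 in Homo 3, and 6.98, 4.55 and 5.41 in WT 1, WT 2 and WT 4. It was thus present in 1 of 3 Homo, 0 of 3 Het and 3 of 4 WT libraries, and no pair of groups was split completely by it.

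Ass1 (chromosome 2, 31470270 to 31520670) encodes argininosuccinate synthase, which joins citrulline and aspartate. Its peak ran across the start from 31470012 to 31470408 in Homo 3, from 31470077 to 31470348 in WT 1 and from 31469995 to 31470345 in WT 4, in a region of 414 bp. The fold was 7.64 in Homo 3, and 4.92 and 5.86 in WT 1 and WT 4. The percentile was 73.6% in Homo 3, and 11.0% and 34.5% in WT 1 and WT 4. Homo 3 thus had the strongest of these peaks, with 32 tags at the summit against 17 in WT 1 and 18 in WT 4, while Homo 1, Homo 2 and all Het libraries had none. The libraries with an Ass1 start peak were those with background depths of 1.608 (Homo 3), 1.745 (WT 1) and 1.403 (WT 4) tags per 200 bp, the 3 highest of the 10. WT 1 had a further weak peak at 31464619 to 31464866, 5404 bp below the gene, with a fold of 4.88.

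Asl (chromosome 5, 130011258 to 130024381) encodes argininosuccinate lyase, which releases arginine and fumarate. Its only peak inside the gene was in WT 3, at 130023875 to 130024111 near the higher-coordinate end, with a fold of 4.76, a percentile of 4.05% and 11 tags. The other Asl peaks lay at neighbouring genes. In Homo 3 and WT 1 a peak inside Gusb, the gene of beta-glucuronidase, ran from 130002646 to 130002983 (Homo 3, fold 5.1) and from 130002766 to 130003030 (WT 1, fold 5.92). The same libraries had a peak across the lower end of Crcp, from 130029235 to 130029571 (Homo 3, fold 4.85) and from 130029213 to 130029537 (WT 1, fold 5.49). Apart from the weak peak in WT 3, the signal counted for Asl was thus at genes on either side of it.

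The 3 genes without a peak include the entry enzyme of the cycle and its last step. Cps1 (chromosome 1, 67122426 to 67231267) encodes carbamoyl phosphate synthetase, which fixes ammonia in mitochondria and is the rate-limiting step. Its nearest row was 44356 bp away in Homo 3, the closest, and the median distance over the 10 libraries was 258986.5 bp. Otc (chromosome X, 10252230 to 10321024) encodes ornithine transcarbamylase, which makes citrulline. Its nearest rows were 12345 bp away in WT 1 and 35279 bp away in Homo 3, with a median of 1369344.5 bp over the 10 libraries. The farthest nearest rows, 2384392 bp for Cps1 and 2960246 bp for Otc, were both in Homo 2, the shortest list (1763 rows). In WT 1, which like Homo 3 has a long list, Cps1 was 83414 bp from a row. Distances were thus large in most libraries, but they were not set against those of all genes, and the part of list length was not tested.

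Arg1 (chromosome 10, 24915207 to 24927470) encodes the liver arginase that splits arginine into urea and ornithine. In contrast to Cps1 and Otc, its nearest row lay at a nearly fixed distance in every library, from 44919 to 45154 bp. In 10 of 10 libraries that row covered the lower-coordinate end of Med23 (24869986 to 24913529), the gene next to Arg1, which encodes a Mediator subunit. With windows of 50 kb on each side, Arg1 was therefore counted with a peak in all 10 libraries through the far end of its neighbour, Otc in Homo 3 and WT 1, and Cps1 in Homo 3.

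The absences were also set against gene length. Cps1 spans 108842 bp and Otc 68795 bp, and of the 4941 genes of at least 50000 bp, 37.9% had no peak in any library. Arg1 spans 12264 bp, and of the 3914 genes of 10000 to 20000 bp, 38.0% had none. Glul spans 9795 bp, and of the 7741 genes under 10000 bp, 59.1% had none and 2.56% had a peak in all 10 libraries. Glul, the shortest of the 7 genes, thus belonged to the length class in which a peak in every library was least frequent.

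**Figure D4:**
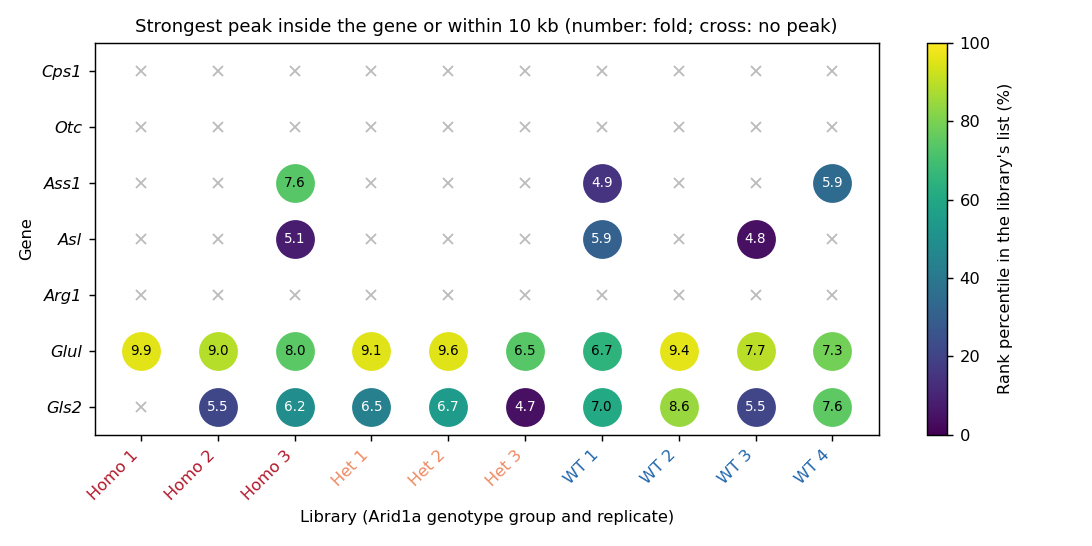
Strongest peak inside each gene or within 10 kb (rows) in each library (columns), coloured by its percentile in the list of that library (%), with the deposited fold as number and a cross where there is no peak. Glul is filled in all 10 columns, Gls2 in 9 and Ass1 and Asl in 3 each, and for Gls2 in WT 1 the strongest row is the one at the Spryd4 start.

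Presence was compared between genotypes with a two-sided exact permutation test over libraries and Benjamini-Hochberg adjustment over all protein-coding genes that had a peak in at least 1 library of the pair. Between Homo and WT, Gls2 had a peak in 66.7% of Homo and 100% of WT libraries (exact permutation p = 0.429, adjusted p = 0.748). Ass1 and Asl had peaks in 33.3% of Homo and 50% of WT libraries each (exact permutation p = 1 for both), and Glul in 100% of both. None of these 4 genes passed an adjusted p of 0.05, nor did any of the 11912 genes tested (0.0%). Cps1, Otc and Arg1, without a peak, were not tested. The smallest p that 4 against 3 libraries allow is 0.0286, and 28 genes had an unadjusted p under 0.05. With this smallest p, an adjusted p under 0.05 needs most of the tested genes to split completely between the groups. The absence of passing genes therefore says little about any single gene. A peak in every Homo and no WT library was found for 0.00839% of the genes tested and one in no Homo and every WT library for 0.227%, and 0 of the 7 genes showed either pattern. As numbers of genes these were 1 and 27, against 10 and 21 at equal list length, 7 and 78 at equal depth and 3 and 2676 without Homo 3. Leaving out Homo 3 loosens the rule, since fewer Homo libraries must share the pattern, so these numbers cannot fall.

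Between Het and WT, Ass1 and Asl each had a peak in 0% of Het and 50% of WT libraries (exact permutation p = 0.429, adjusted p = 0.767). Glul and Gls2 had a peak in 100% of both, but with the gene span alone Gls2 had one in 3 of 3 Het and 2 of 4 WT libraries, a difference of 50 percentage points. On that span it had one in 1 of 3 Homo libraries, and its difference between Homo and Het was −66.7 points. Of 11639 genes tested, 0.0% passed the adjusted threshold, with 553 at an unadjusted p under 0.05. The limit on passing was the same as for Homo and WT. A peak in every Het and no WT library was found for 0.00859% and one in no Het and every WT library for 4.74%, again with 0 of the 7 genes. The uneven numbers, 1 and 552 genes, became 52 and 48 at equal list length and 7 and 152 at equal depth. Homo and Het are each set against the same WT libraries, so these comparisons share their controls.

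Between Homo and Het, Ass1 and Asl had a peak in 33.3% of Homo and 0% of Het libraries, and Gls2 in 66.7% of Homo and 100% of Het libraries (exact permutation p = 1 for each). With 3 against 3 libraries the smallest p is 0.1, so no gene can pass. Of 11191 genes, 0.0% passed, 0.42% had a peak in every Homo and no Het library, and 0.0447% in no Homo and every Het library, again with 0 of the 7 genes. These 47 and 5 genes became 36 and 51 at equal list length and 21 and 32 at equal depth. Without Homo 3, where the rule is again looser, they became 50 and 399. Which number is larger thus depends on the lists used. By region, 0.305% of those called in Homo or WT, 4.37% of those in Het or WT and 0.383% of those in Homo or Het were in all libraries of 1 group and none of the other, and 0 of the 8 regions near the 7 genes were among them. A p that misses the threshold does not show that the groups are alike.

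Single libraries decided some of these values. Without Homo 3, Ass1 and Asl had no peak in Homo, and the difference from WT became −50.0 percentage points for each. Without Homo 1, Gls2 had a peak in all Homo, Het and WT libraries.

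Per library, 1, 2 and 4 of the 7 genes had a peak in Homo 1 to 3, 2 in each Het library, and 4, 2, 3 and 3 in WT 1 to 4. The mean was 2.33 ± 1.53 in Homo (SD, n = 3), 2.0 ± 0.0 in Het (n = 3) and 3.0 ± 0.816 in WT (n = 4). Homo differed from Het and from WT by less than its own spread, and Het differed from WT by −1.0, with an SD of 0.816 in WT. The Homo minus WT difference of −0.667 became 0.25 both at equal list length and at equal depth. That of Het minus WT became 0.25 at equal list length and −0.0833 at equal depth. The group means of depth were in the same order as those of these counts, but single libraries did not always follow. Homo 2, with a background of 0.464 tags, had 2 genes and Homo 1, with 0.914, had 1. WT 2, with 1.131, had 2 genes and WT 3, with 0.985, had 3. The background of the library, in tags per 200 bp, was 0.995 ± 0.576 in Homo, 0.696 ± 0.0415 in Het and 1.32 ± 0.334 in WT, and the share of all protein-coding genes with a peak was 27.5 ± 19.7%, 26.0 ± 9.52% and 44.1 ± 4.19%. The lists held 1763 (Homo 2) to 9618 rows (Homo 3), and a call needed 5 tags in Homo 2 and 10 in WT 1.

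Lists scaled to the depth of Homo 2 kept the Glul peak in all 10 libraries. The scaled −log10 p was 14.6, 16.2 and 7.53 in Homo, 15.0, 14.5 and 7.97 in Het, and 5.49, 11.4, 8.82 and 7.2 in WT, all above the limit of 5. Ass1 kept its peak in Homo 3 alone, with 7.12, against 4.02 in WT 1 and 4.89 in WT 4. Its difference between Homo and WT then became 33.3 percentage points, against −16.7 in the deposited lists. No Het or WT library then had an Ass1 peak. Asl kept no peak, and Gls2 kept one in 2 Homo, 2 Het and 3 WT libraries, that of WT 1 through the Spryd4 start alone. When each list was shortened to its 1763 strongest rows, Glul was counted in 2 of 3 Homo, 3 of 3 Het and 2 of 4 WT libraries, and Gls2 in Homo 2 and WT 2. Glul was thus lost in Homo 3, WT 1 and WT 4, which are among the longest lists.

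Presence patterns of the partly open genes were shared with many others. The pattern of Gls2, absent in Homo 1 alone, was shared with 130 genes (0.601% of all protein-coding genes), of which Bbs2, Cfap43 and Sfr1 were nearest in median percentile of the strongest peak (49.8%, 47.1% and 47.1%, against 48.5% for Gls2). Of the 1505 genes with a peak in all but 1 library, 8.7% lacked it in Homo 1, 60.5% in Homo 2 and 24.6% in Het 3. Gls2 was thus called in the library that most often misses a peak and was missing in a deeper one.

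The pattern of Ass1 was shared with 127 genes (0.587%), the nearest being Prrt1, Hmcn2 and Araf (34.1%, 34.8% and 33.9%, against 34.5% for Ass1). Hmcn2 is the neighbour of Ass1 on chromosome 2, from 31314255 to 31460738, so its window takes in the same peaks. The pattern of Asl was shared with 39 genes (0.18%), the nearest being Ccdc158, Stbd1 and Crcp (7.44%, 7.44% and 7.09%, against 7.6% for Asl), and Crcp shares with Asl the peaks at its own lower end and the one in WT 3, but not those in Gusb. Likeness here was identical presence over the 10 libraries.

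Another 42 genes of nitrogen metabolism were set beside the 7, and 35 of them (83.3%) had a peak in at least 1 library, against 55.5% of all protein-coding genes. Their median was 6.5 libraries per gene, against 2.0 over all genes. Of the 35 tested between Homo and WT, 27 had a lower share of libraries in Homo, 3 a higher one and 5 an equal one, with a median difference of −33.3 percentage points for the list and −33.3 for all genes. Between Het and WT the counts were 21 lower, 4 higher and 10 equal (median −25.0, and −33.3 over all genes), and between Homo and Het 13 lower, 11 higher and 9 equal of 33 (median 0.0, as over all genes). None passed an adjusted p of 0.05 in these comparisons (exact permutation, smallest unadjusted p 0.143, 0.143 and 0.4), and 0 were in every library of 1 group and none of another. The lower shares in Homo and Het were thus no larger at the median than those of all genes. By number, the first-named group was lower for 27 of 35 listed genes (Homo and WT), 21 of 35 (Het and WT) and 13 of 33 (Homo and Het). Over all genes tested it was lower for 77.1%, 75.4% and 27.8%.

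Partners of the urea cycle, 9 genes, had peaks at 3, 1 and 6 genes in Homo 1 to 3, 4, 2 and 2 in Het 1 to 3, and 8, 6, 3 and 5 in WT 1 to 4. Car5a, the mitochondrial carbonic anhydrase that supplies bicarbonate to Cps1, had one in 2 of 3 Homo, 3 of 3 Het and 4 of 4 WT libraries, none of them over the RefSeq start of Car5a. Slc25a15, the ornithine carrier of the mitochondrial membrane, had one in 2 Homo, 2 Het and 4 WT libraries, over its start in 7 of the 8. Slc25a12, an aspartate and glutamate carrier, and Slc7a2, a carrier of arginine and lysine, had one in 6 libraries each, and Slc25a2, a second ornithine carrier, in 5. Nags, which makes the obligatory activator of Cps1, had a peak in WT 1 alone, over the start of Tmem101, and Arg2, the second arginase, had none. Both were named after their values were seen.

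Enzymes of glutamine and glutamate, 15 genes, all had a peak in at least 1 library, at 6, 3 and 15 genes in Homo 1 to 3, 13, 10 and 8 in Het 1 to 3, and 14, 13, 10 and 13 in WT 1 to 4. Glud1, glutamate dehydrogenase, had a peak over its start in all 10 libraries with a median percentile of 95.1%, and that peak also covered the start of Shld2. Gfpt1, which uses glutamine to make glucosamine phosphate, and Ctps, which uses it to make CTP, were each called in 3 Homo, 2 Het and 4 WT libraries. Got1, Gpt2, Aldh4a1 and Ppat followed with 8 libraries each. Glud1 thus resembled Glul in being open at the start in every library.

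Carriers of glutamine, glutamate and ammonium, 11 genes, had peaks at 2, 1 and 5 genes in Homo 1 to 3, 4, 4 and 3 in Het 1 to 3, and 5 in each WT library. Slc3a2, the heavy chain of large amino acid transporters, had a peak in all 10 libraries, and it covered the start of Snhg1 and not that of Slc3a2. Slc7a5, its light chain partner, was called in 9 libraries, in 8 of them with a peak over the start of BC048644. Peaks over that start were also counted for Car5a, and the Slc7a5 start was not among the promoter windows. Slc38a2 was called in 8 libraries, in 1 of them over its own start. Slc1a5 and Slc38a3 were called in 1 Homo, 1 Het and 4 WT libraries each. Slc1a2, Slc38a1, Slc38a4, Slc38a5, Slc7a11 and Rhbg had none. That is 6 of the 11 carriers, beside 44.5% of all protein-coding genes without a peak in any library. Slc1a2 carries glutamate and Rhbg ammonium. These 6 were named after their values were seen.

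Genes of polyamine synthesis, which starts from the ornithine made by arginase, numbered 7 and had peaks at 4, 2 and 6 genes in Homo 1 to 3, 5, 4 and 2 in Het 1 to 3, and 5, 7, 5 and 6 in WT 1 to 4. Odc1, ornithine decarboxylase and a known MYC target, was called in 3 Homo, 2 Het and 4 WT libraries, over its start in 6 of the 9. Oaz1, which encodes the antizyme that leads ornithine decarboxylase to degradation, was called in 2 Homo, 3 Het and 4 WT libraries. Srm and Azin1 were called in 8 libraries each and Amd1 in 7.

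**Figure D5:**
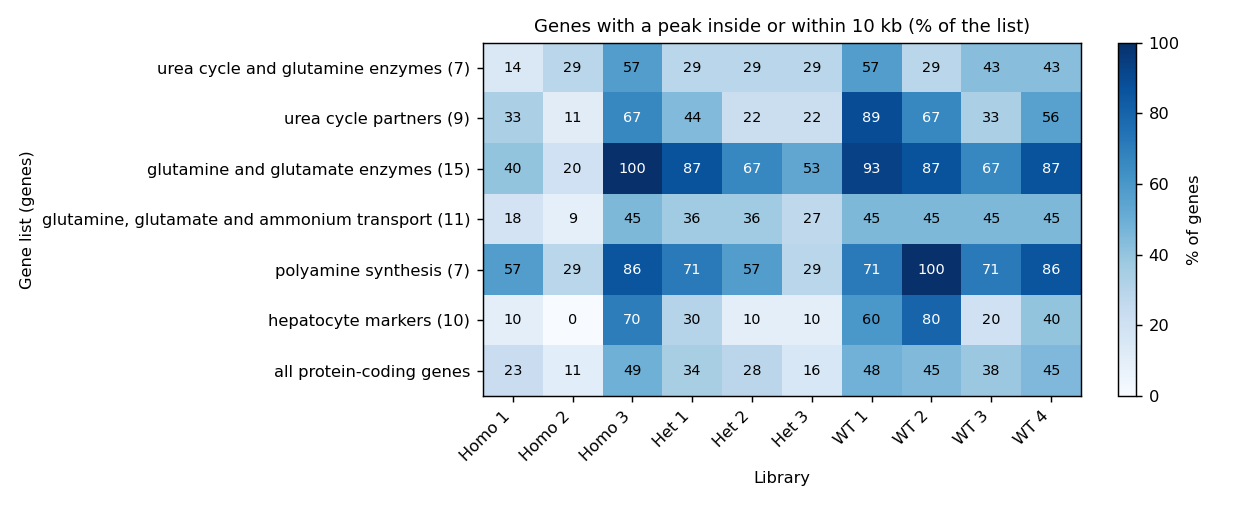
Genes with a peak inside or within 10 kb, as percent of the list (colour and number), for each gene list (rows) and library (columns), with all protein-coding genes in the bottom row. Homo 2 has the lowest share in every row but the top one, with Het 3 level in polyamine synthesis, and Homo 3, WT 1, WT 2 and WT 4 have high shares in most rows.

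Markers of liver cell types were read in the same way. Of 10 hepatocyte markers, 1, 0 and 7 had a peak in Homo 1 to 3, 3, 1 and 1 in Het 1 to 3, and 6, 8, 2 and 4 in WT 1 to 4. The mean was 2.67 ± 3.79 in Homo, 1.67 ± 1.15 in Het and 5.0 ± 2.58 in WT. Cebpa, a hepatocyte transcription factor, was called in 9 libraries over its start, Alb, the albumin gene, in Homo 3 and WT 2, and Tat and Foxa2 in none. Of 5 cholangiocyte markers none was called in Homo or Het and at most 1 in each WT library, with Epcam in WT 3 and WT 4. Of 6 immune markers Cd79a alone was called, in 8 libraries and over the start of Arhgef1, and of 6 endothelial and stellate cell markers none was called. As a share of the list the markers averaged 26.7% in Homo, 16.7% in Het and 50% in WT, beside 27.5%, 26.0% and 44.1% of all protein-coding genes. Homo 3 and WT 1, which had peaks at the most of the 7 genes, had 7 and 6 hepatocyte markers called. They also had the deepest backgrounds and the highest shares of all genes (49.2% and 48.1%). The 2 counts did not always move together, since WT 2 had 8 markers and 2 of the 7 genes, and WT 3 had 2 markers and 3 genes. The part of cell composition in the gene counts was not tested.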

How the data were processed

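ATAC-seq peak lists of 10 liver tumour libraries were used. Per the submitters' processing notes, Bowtie2, MACS2 and deepTools were used with build mm10, and no versions are given. The sources used here give no peak settings, read filters, transposase shift or read totals. A deposited row holds a fold, −log10 p and −log10 q values and a score. The fold is a ratio of summit tags over local background, with the same constant added to both. The score is −log10 p times 10 without its decimals in at least 99.9% of rows. The authors called peaks per library, so presence in each library is the replicated value, and per-peak values only describe and rank peaks within a list.

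Groups came from the sample titles. Genes came from a RefSeq table without strand or exons, on GRCm38.p6 (the same primary coordinates as mm10). An overlap of 1 bp with the gene and 10 kb on each side counted as presence, tested by exact permutation (Python 3.11.15, numpy 2.4.6, pandas 2.3.3, SciPy 1.17.1). Depth was recovered as the whole number of tags and the Poisson background that give fold and −log10 p within 0.001, found for at least 99.9% of rows, and the lowest background shared by at least 1% of rows was taken as that of the library, per 200 bp. It ranged from 0.464 to 1.745 tags. For equal depth, summit tags were scaled to 0.464 and rows with −log10 p of at least 5 kept. At most 7 rows were identical between any pair of libraries. Scripts were tested on simulated data.

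The 7 genes and the other lists were chosen with earlier results of these data known. The 7 are named whatever their values. Other pathway genes are named where they had a peak in all 10 libraries or in every library of 1 group and none of another, and otherwise up to 5 per list by number of libraries (ties after the fifth place included), and genes of identical presence up to 3 per gene by nearness in percentile. Some genes that these rules would name are not reported here. Alternatives were windows of 0, 1 and 50 kb, −log10 p of at least 10, the summit inside the window, lists of equal length and depth, each library left out and a replicate block.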

Additional observations from a re-analysis of the deposited data

Results flagged for a closer look

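The number of tags at the summit of the Gls2 peak was 24, 23 and 24 in WT 1, WT 2 and WT 4 and 13 in WT 3, so WT 3 stood apart from the other WT libraries by 0.909 of the range of the group. Of the 14 groups of values checked in this way chance singles out about 1 in 20. Per background tag of the library the value of WT 3 was 13.2, against 13.8, 20.3 and 17.1 in WT 1, WT 2 and WT 4.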

How the results depend on the processing

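No gene passed an adjusted p of 0.05 in any comparison or alternative, but most of these could not pass. The smallest p is 0.1 in Homo against Het, 0.0667 or 0.1 with a library left out, and 0.25 with the replicate block (0 genes in each pair), so these zeros say nothing about stability. In the remaining settings of Homo or Het against WT, a pass needs most tested genes to split completely. The replicate numbers gave no clear sign of pairing. Correlations of same-numbered libraries were −0.126, −0.0422 and −0.226 between Homo and WT, and 0.014, 0.0169 and 0.0384 between Het and WT. Between Homo and Het they were −0.0845, −0.0798 and −0.324. Those of differently numbered libraries ran from −0.0896 to 0.187 (Homo and WT), from −0.0502 to 0.0449 (Het and WT) and from −0.202 to 0.258 (Homo and Het). The same-numbered values of Het and WT were all positive, so these values do not settle pairing. Presence of Ass1 in Homo minus WT turned from −16.7 percentage points to 8.33 with −log10 p of at least 10 and to 33.3 at equal depth (exact permutation p = 0.429, adjusted p = 0.866). Presence of Gls2 at equal list length turned from −33.3 to 8.33 in Homo minus WT and from −33.3 to 33.3 in Homo minus Het. The difference in genes with a peak per library, Het minus WT, was −1.0 in the deposited lists, −0.25 with gene spans only, 0.25 at equal length and −0.0833 at equal depth. In Homo minus WT it was −0.667 and became 0.25 at equal length and at equal depth, and in Homo minus Het it was 0.333 and became −0.333 with gene spans only. With single libraries left out it ran from −1.33 to −0.667 in Het minus WT, from −1.5 to 0.0 in Homo minus WT and from −0.5 (without Homo 3) to 1.0 in Homo minus Het. The cause of these changes was not tested. Leaving out a library loosens the rule for genes with a peak in no library of the first group and every library of the second. The number of such genes then ran from 30 to 2676 in Homo and WT (27 with all) and from 5 to 399 in Homo and Het. In Het and WT it ran from 601 to 1547 (552 with all, the highest without Het 1). Regions called in all of 1 group and none of the other numbered 37 (Homo and WT), 499 (Het and WT) and 40 (Homo and Het). Where the rows of a library had to cover at least 50% of the joined region they numbered 57, 782 and 25. With −log10 p of at least 10 they numbered 24 for Homo and Het, at equal length 66 for Het and WT, and at equal depth 75 for Homo and WT and 128 for Het and WT. With single libraries left out, which loosens the rule, they ran from 52 to 2111 (the highest without Homo 3), from 549 to 1263 (without Het 1) and from 77 to 340 (without Homo 3). A shallow list cannot show that a region is closed, since a peak at the limit in WT 1 (10 tags) would hold fewer tags in Homo 2.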
